A study of Drosophila melanogaster with 21 samples.

Results

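CG8620, CG13116, CG14329, CG5953, CG32726, CG31808, CG6983 and CG8665 are protein-coding genes of the fly that carry only a number for a name. These 8 of the 17612 genes in the table of counts were chosen by their measured age trends, which were strong in the control brains of set 2. The choice states no cut-off, so no gene lies just inside or just outside of it. All 8 had a row and passed the filter on low counts in both sets, in which 9961 genes (set 1) and 10525 genes (set 2) were tested. Set 1 held 3d and 20d brains of control flies, the w1118 line labelled 5905 (Control), and of flies with a deletion of miR-34. Set 2 held 3d, 20d and 50d brains of the control line. Every group had 3 biological replicates of 20 male brains each, 21 libraries in all, and the RNA was polyA-selected. The deletion is carried by the whole fly and by a single line, so brain-specific loss of miR-34 and other differences between the lines cannot be told apart from it. mir-34 had no row in the table, so its loss could not be checked in these counts.

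A CG number is the placeholder that a predicted fly gene keeps until it is given a name. The annotation used here names none of the 8. CG8665 is known from its resemblance to human ALDH1L1, the 10-formyltetrahydrofolate dehydrogenase that returns a one-carbon unit from folate as carbon dioxide, and no role is given for the other 7. MicroRNAs such as miR-34 pair with messenger RNAs and lower their translation or stability, and in the fly miR-34 is known for rising in the adult brain with age. Loss of a microRNA acts directly on its own targets and indirectly on any other gene.

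Positions refer to BDGP6.54. CG8620 (FBgn0040837, 3L, 7158099 to 7158874, + strand) and CG13116 (FBgn0032139, 2L, 9729940 to 9730945, + strand) are single-exon genes. CG13116 lies inside the gene Nckx30C without sharing an exon with it. CG14329 (FBgn0038525, 3R, 17609359 to 17610533, + strand) is on the chromosome arm of mir-34, 7.51 Mb away. CG5953 (FBgn0032587, 2L, 16508078 to 16532877, − strand) has 5046 bp of exon in a span of 24800 bp, and CG8665 (FBgn0032945, 2L, 21371227 to 21377995, + strand) has 3624 bp of exon. CG32726 (FBgn0052726, X, 7425220 to 7425743, − strand) is the shortest of the 8, with 458 bp of exon. CG31808 (FBgn0062978, 2L, 16704286 to 16716195, − strand) shares exon sequence with Cyt-c-d on the other strand. CG6983 (FBgn0035896, 3L, 8443042 to 8449377, − strand) has 1740 bp of exon.

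Library totals were 17932132 to 23109013 counts in set 1 and 30890607 to 43713430 in set 2. The label of brain was checked against marker lists. All 5 neuronal markers were detected in every group, with a summed level of 4321 to 7288 CPM (reads of a gene per 1000000 reads of the library, after TMM scaling), and so were all 6 glial markers (3160 to 6674 CPM). Photoreceptor markers were also high, 21370 to 67910 CPM over 6 genes, and varied between replicates. Gut markers were near 0 in most libraries, with 20.9 CPM in 20d control replicate 2 and 32.2 CPM in 20d mutant replicate 2 of set 1 and 14.7 CPM in 3d control replicate 1 of set 2. Fat body markers fell with age in set 2, from 1008 to 1402 CPM at 3d to 79.1 to 138 CPM at 50d, and were 297 to 858 CPM in set 1 controls and 233 to 498 CPM in set 1 mutants. Haemocyte markers were 172 to 199 CPM at 3d, 145 to 171 CPM at 20d and 214 to 249 CPM at 50d in set 2, and 87.4 to 163 CPM in set 1. Over all libraries, muscle markers summed to 41 to 123 CPM and tracheal markers to 19.6 to 36.8 CPM. Markers of male reproductive tissue summed to 0 to 3.55 CPM. Fewer cells of a type and less RNA per cell cannot be told apart in such bulk samples.

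In set 2, whose values chose the genes and are therefore given without a test, 5 of the 8 genes were higher at 50d than at 3d and 3 were lower. In 6 genes the level moved in one direction at both steps with no overlap between the libraries of neighbouring ages, a pattern shown by 14.7% of the 10525 genes tested. The exceptions were CG32726, which went up and then down, and CG8665, whose libraries overlapped at 3d and 20d.

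CG8620 had 1.59, 1.40 and 2.03 CPM at 3d, 3.39, 3.83 and 3.37 CPM at 20d and 20.0, 20.5 and 17.9 CPM at 50d. The means were 1.67 ± 0.32, 3.53 ± 0.26 and 19.5 ± 1.4 CPM (SD, n = 3), and the largest part of the rise came after 20d. CG8665 was at 10.2, 5.79 and 5.85 CPM at 3d, 17.5, 6.30 and 4.80 CPM at 20d and 101, 46.5 and 65.6 CPM at 50d. It was thus high at 50d in every library, and in replicate 1 of each age it exceeded the other 2 libraries of that age.

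CG13116, CG14329 and CG5953 rose mainly before 20d. CG13116 had a mean of 6.72 ± 0.47 CPM at 3d, 20.9 ± 1.6 CPM at 20d and 28.4 ± 1.7 CPM at 50d (SD, n = 3). CG14329 had 11.4 ± 0.68, 28.7 ± 1.0 and 35.6 ± 1.8 CPM, and CG5953 had 16.9 ± 0.16, 35.3 ± 1.9 and 52.6 ± 3.7 CPM at these ages. No library of one age reached the range of the next for any of these 3 genes.

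CG31808 and CG6983 were the most abundant of the 8 and fell. CG31808 had 424, 425 and 471 CPM at 3d, 207, 210 and 204 CPM at 20d and 193, 183 and 182 CPM at 50d, so that nearly all of its fall was over by 20d. CG6983 fell by similar amounts at both steps on the log2 scale, with means of 249 ± 12 CPM at 3d, 159 ± 4.7 CPM at 20d and 102 ± 4.7 CPM at 50d (SD, n = 3). Per kilobase of exon, the median 3d level of CG31808 was 220 CPM and that of CG6983 was 141 CPM, against 10.1 CPM for CG14329 and 1.61 CPM for CG8665, the lowest of the 8.

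CG32726 was at 3.50, 3.85 and 3.09 CPM at 3d and at 7.50, 17.6 and 11.4 CPM at 20d, but at 50d its 3 libraries held only 5, 6 and 7 counts (0.157 to 0.181 CPM). Summed over libraries, 18 counts at 50d stood against 1324 at 20d, a depth-scaled ratio of 71.8 (95% interval 45.3 to 122, counting error only).

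The description "steady" therefore holds for direction in the 6 genes above and for pace in few. The group means of CG8665 also kept one direction, but its rise from 3d to 20d turned into a fall (log2 difference -0.41) without 20d control replicate 1. A constant pace on the log2 CPM scale would put 36.17% of the change from 3d to 50d into the 17 days before 20d. The share was 30.4% for CG8620 and 50.2% for CG6983, 65.1% for CG5953, 78.6% for CG13116, 81.3% for CG14329 and 87.6% for CG31808, and 6.30% for CG8665. With 3 ages, the time course between them was not measured.

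**Figure D1:**
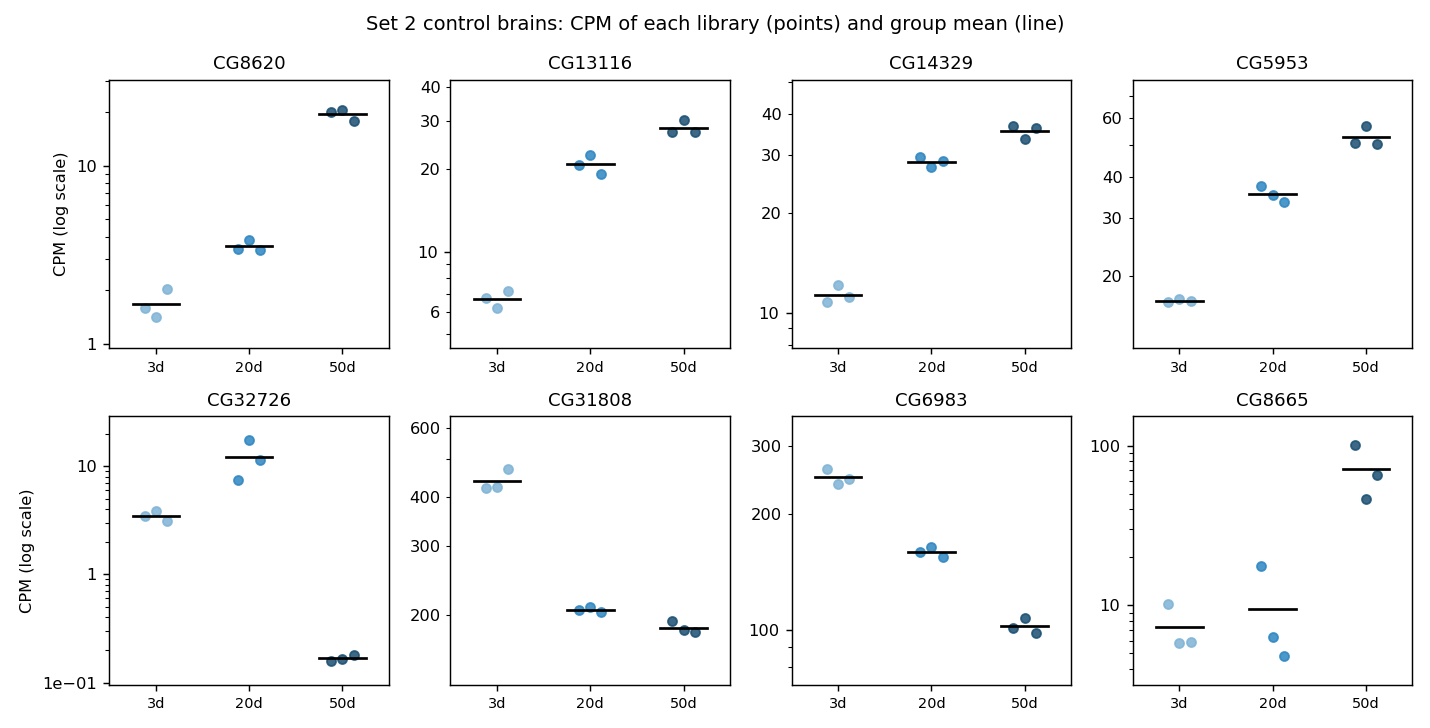
Level of each gene in the control brains of set 2 at 3d, 20d and 50d, in CPM on a log axis whose range differs between panels; points are the 3 libraries of an age and lines are group means. CG32726 is highest at 20d and at 0.157 to 0.181 CPM at 50d, and CG8665 overlaps between 3d and 20d.

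Set 1 offers a separate measurement of the first age step in libraries that had no part in the choice. In set 1 controls, 6 of the 8 genes differed between 20d and 3d at an adjusted p under 0.05 (edgeR quasi-likelihood test with Benjamini-Hochberg adjustment over all 9961 genes), against 24.6% of all genes tested. Of the 6, 3 were higher (11.3% of all genes) and 3 were lower (13.3%). The median size of the change was 0.79 (log2) over the 8 genes and 0.19 over all genes tested. Among the 3441 CG-numbered genes tested, 21.8% were called. The libraries of the 2 ages did not overlap in 7 of the 8 genes and in 38.2% of all genes tested. Of the 6 called, 5 had the sign seen in set 2, and CG32726 had the opposite sign.

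CG8620 had 0.917, 2.03 and 0.996 CPM in 3d controls and 2.23, 3.58 and 4.71 CPM in 20d controls. All 20d libraries were above all 3d libraries, and the gene rose (log2 fold change 1.41, SE 0.32, adjusted p = 0.00695 from edgeR). CG5953 rose from 20.2, 20.9 and 19.0 CPM to 26.7, 29.1 and 32.2 CPM (log2 fold change 0.55, SE 0.13, adjusted p = 0.00881). CG14329 rose from 10.7, 12.1 and 13.0 CPM to 19.8, 23.4 and 24.6 CPM (log2 fold change 0.92, SE 0.22, adjusted p = 0.0129). The call of CG14329 was lost without 3d control replicate 1 (adjusted p = 0.0577) and without 20d control replicate 3 (adjusted p = 0.059), while its libraries did not overlap.

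CG31808 fell from 465, 436 and 432 CPM in 3d controls to 289, 257 and 283 CPM in 20d controls (log2 fold change -0.69, SE 0.074, adjusted p = 3.54e-05 from edgeR). It was called in each of the 6 fits that left out 1 of these libraries. CG6983 fell from 195, 241 and 235 CPM to 99.7, 161 and 110 CPM (log2 fold change -0.86, SE 0.22, adjusted p = 0.0209). Its groups did not overlap, but the call was lost without 3d control replicate 2 (adjusted p = 0.0612) or 3 (0.0587) and without 20d control replicate 1 (0.0723) or 3 (0.0752).

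CG32726 moved against its set 2 direction. It had 17.7, 12.3 and 5.03 CPM in 3d controls of set 1 and 0.207, 0.358 and 1.03 CPM in 20d controls (log2 fold change -4.45, SE 0.70, adjusted p = 0.00192 from edgeR), and was called in all 6 fits with 1 library left out. In set 2 the same line at the same ages had given 3.09 to 3.85 CPM at 3d and 7.50 to 17.6 CPM at 20d, a log2 difference of 1.80 in the other direction. The sets were separate experiments and were not put into one fit, so this contrast was not tested.

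CG13116 and CG8665 were not called between the ages in set 1 controls. CG13116 had 6.20, 6.10 and 4.27 CPM at 3d and 6.53, 10.5 and 10.4 CPM at 20d, groups that did not overlap (log2 fold change 0.73, SE 0.40, adjusted p = 0.23 from edgeR). It was called when the fit held only these groups (adjusted p = 0.0499), but in no fit with 1 library left out (0.189 to 0.448). CG8665 had 5.23, 7.38 and 2.09 CPM at 3d and 5.21, 2.78 and 8.12 CPM at 20d, which overlapped throughout (log2 fold change 0.14, SE 0.53, adjusted p = 0.883), as it had between these ages in set 2.

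In miR-34 mutants, 6 of the 8 genes differed between 20d and 3d, against 46.0% of all genes tested. Of these, 4 were higher (22.8% of all genes) and 2 were lower (23.2%), and all 6 had the sign of set 2. The median size over the 8 genes was 1.24 (log2) and that over all genes was 0.28. The libraries of the 2 ages did not overlap in 6 of the 8 genes and in 57.4% of all genes tested.

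CG8620 went from 1.06, 1.60 and 1.08 CPM to 5.14, 6.43 and 6.31 CPM in the mutants (log2 fold change 2.25, SE 0.32, adjusted p = 7.85e-05 from edgeR). CG5953 went from 22.4, 21.2 and 26.9 CPM to 35.5, 52.1 and 42.2 CPM (log2 fold change 0.88, SE 0.13, adjusted p = 0.000111). Both rose with no overlap between the ages. CG13116 went from 5.38, 5.69 and 6.65 CPM to 7.51, 20.5 and 24.3 CPM (log2 fold change 1.56, SE 0.40, adjusted p = 0.011), and 20d mutant replicate 1 stayed close to the 3d range. This call was lost when the fit held only the groups compared (adjusted p = 0.0529) and when the 2 libraries with gut markers at 20.9 and 32.2 CPM were left out (adjusted p = 0.0503).

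CG31808 fell from 675, 691 and 657 CPM to 308, 281 and 249 CPM in mutants (log2 fold change -1.27, SE 0.074, adjusted p = 4.12e-08 from edgeR). CG6983 fell from 238, 214 and 273 CPM to a 20d mean of 133 ± 30 CPM over 3 libraries (SD), a log2 fold change of -0.86 (SE 0.22, adjusted p = 0.0104) that matched the control value to the second decimal. CG32726 was at 3.17, 4.03 and 1.20 CPM at 3d and 0.777, 1.26 and 1.66 CPM at 20d in mutants and was not called (log2 fold change -1.22, SE 0.66, adjusted p = 0.159). CG8665 was not called either (log2 fold change -0.71, SE 0.49, adjusted p = 0.264).

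**Figure D2:**
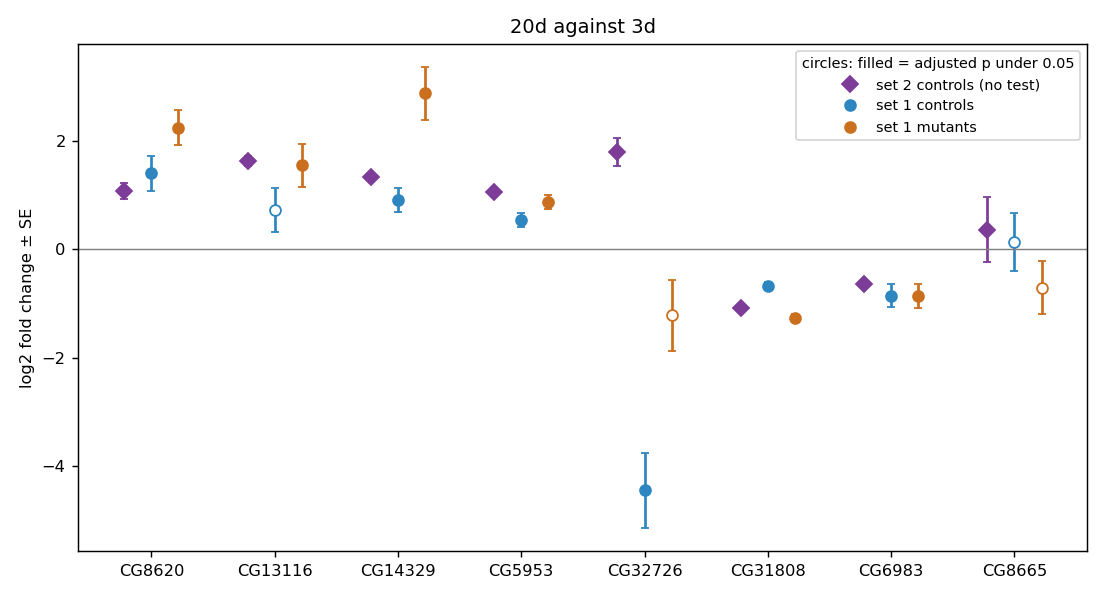
Log2 fold change of 20d against 3d for each gene, with standard errors derived from the edgeR test. Diamonds are set 2 controls (no test, since they chose the genes). Circles are set 1 controls and set 1 mutants, filled at an adjusted p under 0.05. CG32726 is at 1.80 in set 2 and at -4.45 in set 1 controls, and CG8620, CG14329 and CG5953 are above 0 in all 3 series.

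Between genotypes at 3d, 3 of the 8 genes were called, against 31.4% of all genes. Of the 3, 1 was higher in the mutant (16.5% of all genes) and 2 were lower (15.0%). At 20d, 2 of the 8 were called, against 32.1%, with 1 higher (16.6%) and 1 lower (15.4%). These shares were close to those of all genes. The median size of the difference was 0.41 at 3d and 0.72 at 20d (log2) over the 8 genes and 0.21 at each age over all genes. A lack of overlap between the genotypes was common, seen in 48.8% of all genes at 3d and 42.7% at 20d.

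CG14329 was almost absent from the mutant. It had 198, 245 and 275 counts in 3d controls and 1, 5 and 6 counts in 3d mutants, and 479, 522 and 549 counts in 20d controls and 21, 36 and 43 counts in 20d mutants. No mutant library came near a control library of either age. The log2 fold change of mutant against control was -5.80 at 3d (SE 0.39, adjusted p = 1.03e-06 from edgeR) and -3.83 at 20d (SE 0.27, adjusted p = 1.48e-06), ranks 34 and 73 by size of 9961 genes. From the summed counts, the control level was 57.8 times the mutant level at 3d (95% interval 32.9 to 112) and 14.5 times at 20d (11.8 to 17.9), counting error only. The gene kept its direction with age in the mutant, from 0.221 ± 0.16 CPM at 3d to 1.62 ± 0.74 CPM at 20d (SD, n = 3; log2 fold change 2.88, SE 0.49, adjusted p = 0.000553). In absolute terms it gained 1.40 CPM there and 10.6 CPM in controls. The age by genotype interaction was 1.97 (log2, SE 0.56, adjusted p = 0.0321), and 7 of the 12 fits with 1 library left out gave no call (adjusted p up to 0.0938), those without any one of the 3d controls, 3d mutant replicate 1 or 2, 20d control replicate 1 or 20d mutant replicate 2.

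For CG14329 the neighbouring genes did not show a loss of this size. sll, which encodes a transporter of activated sulfate and is the nearest gene on one side, had a log2 fold change of -0.28 at 3d (SE 0.074, adjusted p = 0.0106 from edgeR) and 0.00 at 20d (SE 0.072, adjusted p = 0.968). Edg91, on the other side, was higher in the mutant at 20d, with 0 to 6 counts in 20d controls and 32 to 107 counts in 20d mutants (log2 fold change 4.01, SE 0.78, adjusted p = 0.00231). Sequence differences between the lines at this locus were not analysed here.

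CG31808 was higher in 3d mutants and level with controls at 20d. At 3d it had 675, 691 and 657 CPM in mutants and 465, 436 and 432 CPM in controls (log2 fold change 0.60, SE 0.073, adjusted p = 3.84e-05 from edgeR). At 20d the groups overlapped, 308, 281 and 249 CPM against 289, 257 and 283 CPM (log2 fold change 0.02, SE 0.073, adjusted p = 0.883). The interaction was -0.58 (log2, SE 0.10, adjusted p = 0.002) and was called in all 12 fits with 1 library left out. The glial marker sum was also higher in mutants at 3d, at 6380 to 6674 CPM against 4826 to 5593 CPM in controls. Unlike CG31808, it stayed higher in mutants at 20d, at 3998 to 4102 CPM against 3722 to 3808 CPM. The neuronal sum was also higher in 3d mutants (7075 to 7288 CPM) than in 3d controls (5100 to 5694 CPM). In set 2 the glial sum was 5300 to 5653, 3407 to 3434 and 3160 to 3346 CPM at the 3 ages. The part of these markers in the result was not tested.

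CG32726 was lower in 3d mutants, at 69, 78 and 20 counts against 329, 248 and 106 in 3d controls (log2 fold change -2.04, SE 0.58, adjusted p = 0.0249 from edgeR). The groups did not overlap, but the call was lost without 3d control replicate 1 (adjusted p = 0.0861) or 2 (0.0568) and without 3d mutant replicate 1 (0.0711) or 3 (0.0706), and also with no filter on low counts (0.0512) and with only the groups compared in the fit (0.0833). At 20d the counts were low in both genotypes, 5, 8 and 23 in controls and 18, 29 and 30 in mutants (log2 fold change 1.20, SE 0.78, adjusted p = 0.277). The interaction was 3.24 (log2, SE 0.97, adjusted p = 0.0467), and it was called in only 2 of the 12 fits with 1 library left out, those without 3d control replicate 3 or 20d control replicate 3.

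Over the interaction of age and genotype, 3 of the 8 genes were called, CG14329, CG32726 and CG31808, against 18.6% of all genes. Of the 3, 2 had a positive interaction (8.29% of all genes) and 1 a negative one (10.3%).

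CG5953 was the other gene called at 20d, higher in mutants at 35.5, 52.1 and 42.2 CPM than in controls at 26.7, 29.1 and 32.2 CPM (log2 fold change 0.56, SE 0.13, adjusted p = 0.00446 from edgeR). It was called in all 6 fits with 1 of these libraries left out. At 3d it was at 22.4, 21.2 and 26.9 CPM in mutants and 20.2, 20.9 and 19.0 CPM in controls and was not called (log2 fold change 0.23, SE 0.13, adjusted p = 0.207), and the interaction was 0.33 (SE 0.18, adjusted p = 0.226). CG8620 stood near the threshold at 20d. Its mutant libraries (5.14, 6.43 and 6.31 CPM) were all above its control libraries (2.23, 3.58 and 4.71 CPM). The log2 fold change was 0.77 (SE 0.29, adjusted p = 0.0599 from edgeR). Of the 6 fits with 1 library left out, 1 called it, and the adjusted p reached 0.204. Of the 7 other alternatives, 3 called it, DESeq2 among them (adjusted p = 0.0476).

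CG13116 overlapped between the genotypes at 20d, since 20d mutant replicate 1 (7.51 CPM) lay within the controls (6.53 to 10.5 CPM) and the other 2 mutant libraries (20.5 and 24.3 CPM) did not. Its log2 fold change was 0.93 (SE 0.38, adjusted p = 0.0948 from edgeR). Of the 6 fits with 1 library left out, only that without 20d mutant replicate 1 called it (1.29, adjusted p = 0.000417). The adjusted p reached 0.278 in these fits, and 1 of the 7 other alternatives called the gene. CG8665 had 12, 20.4 and 9.89 CPM in 3d mutants, all above the 5.23, 7.38 and 2.09 CPM of 3d controls, with a log2 fold change of 1.53 (SE 0.51, adjusted p = 0.0504). Of the 6 fits with 1 library left out, only that without 3d control replicate 2 called it (adjusted p = 0.0394), and the adjusted p reached 0.156. Of the 6 other alternatives, 3 called it, DESeq2 among them (adjusted p = 0.0159), and the adjusted p reached 0.105. At 20d its genotypes overlapped (log2 fold change 0.68, SE 0.51, adjusted p = 0.345). CG6983 differed by 0.11 at 3d (SE 0.22, adjusted p = 0.731) and 0.10 at 20d (SE 0.22, adjusted p = 0.756), with overlap at both ages.

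Of the 2 genes called between the genotypes at 20d, the mutant difference of CG5953 had the sign of its change from 20d to 50d in set 2 and that of CG14329 the opposite one.

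**Figure D3:**
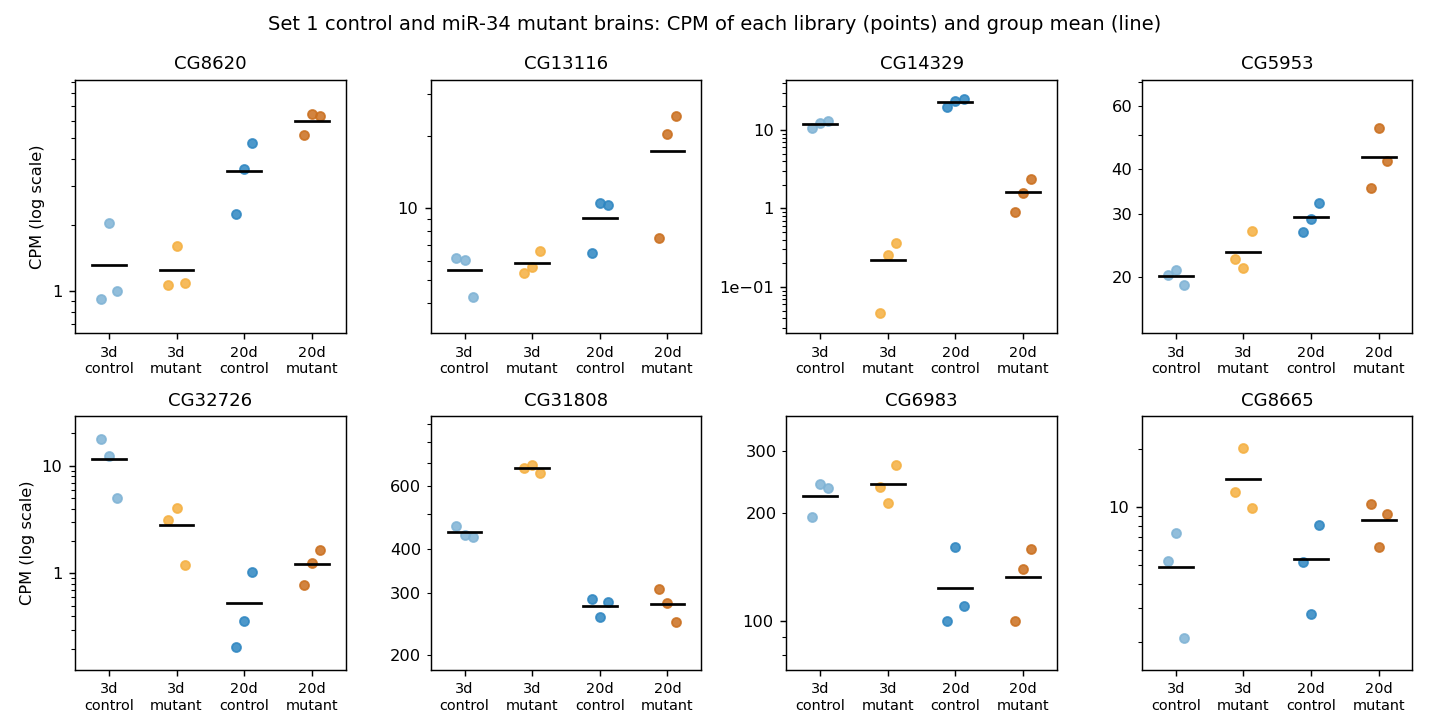
Level of each gene in set 1, in CPM on a log axis whose range differs between panels, for 3d and 20d control and miR-34 mutant brains; points are the 3 libraries of a group and lines are group means. CG14329 lies at 0.221 and 1.62 CPM in mutants and above 10 CPM in every control library, and CG31808 is highest in 3d mutants.

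**Figure D4:**
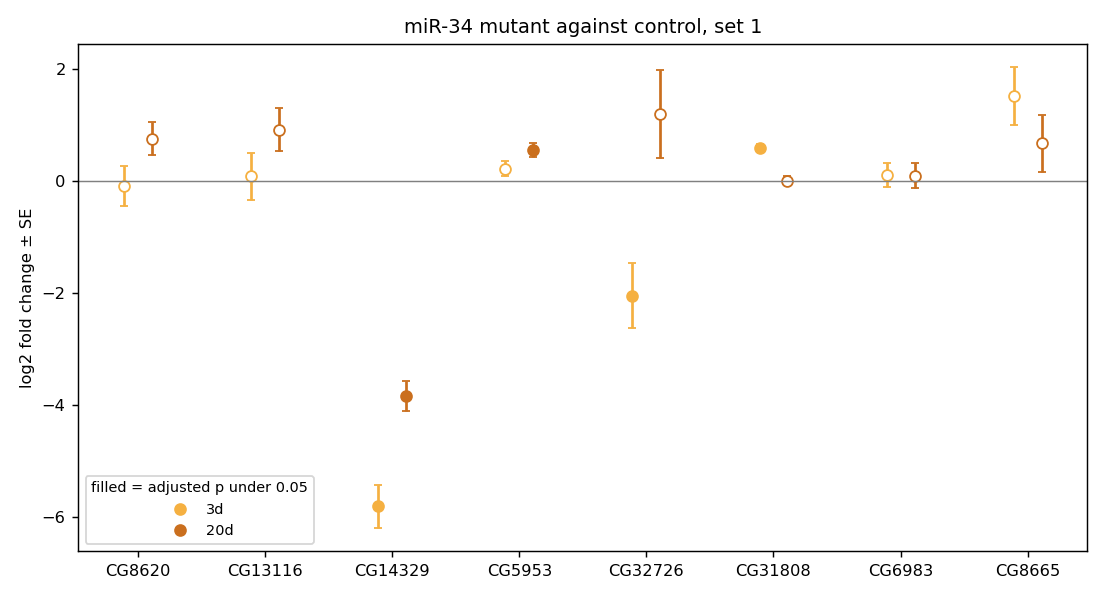
Log2 fold change of miR-34 mutant against control at 3d and 20d for each gene, with standard errors derived from the edgeR test. Filled circles have an adjusted p under 0.05. CG14329 is at -5.80 and -3.83, and of the other 7 genes CG31808 and CG32726 are called at 3d and CG5953 at 20d.

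For each of the 8 genes, the 2 genes with the most similar pattern were taken by Pearson's r of log2 CPM over the 12 libraries of set 1, among 7814 expressed genes. The values are descriptions without a test, since the libraries form 4 groups and share whatever moves with age and genotype, and the r over the 9 libraries of set 2 is given beside each. The value within groups is r over deviations from group means.

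CG6983 was most like 2 genes of phototransduction, Gbeta76C, the beta subunit of the eye's G protein, and norpA, the phospholipase C that this G protein activates. For Gbeta76C r was 0.987 in set 1, 0.985 within groups and 0.974 in set 2, and for norpA it was 0.981, 0.977 and 0.966. Its CPM divided by that of Gbeta76C was 0.268 ± 0.017 in controls and 0.252 ± 0.0097 in mutants at 3d, and 0.293 ± 0.011 and 0.256 ± 0.026 at 20d (SD, n = 3). In set 2 the ratio was 0.190 ± 0.021, 0.208 ± 0.022 and 0.210 ± 0.027 at the 3 ages, with overlapping libraries. The ratio to norpA did not hold across ages. In set 1 controls it fell without overlap from 0.097 to 0.107 at 3d to 0.073 to 0.083 at 20d. In set 1 mutants it fell from 0.095 to 0.103 at 3d to 0.085 to 0.089 at 20d. This step was not seen in set 2, where the libraries overlapped at 3d (0.067 to 0.081) and 20d (0.072 to 0.078). From 20d to 50d in set 2 the ratio fell without overlap to 0.059 to 0.061. The photoreceptor markers, of which norpA is 1 of 6, were also summed. In set 2 the sum was 49950 to 53050 CPM at 3d, 53510 to 67910 CPM at 20d and 36300 to 49890 CPM at 50d. In set 1 it was 36520 to 50550 CPM in 3d controls and 26920 to 47080 CPM in 20d controls. Mutants had 29750 to 40870 CPM at 3d and 21370 to 47380 CPM at 20d. Abundant genes weigh most in this sum, with ninaE at 251810 to 1448148 counts per library and norpA at 27184 to 129224. The sum did not fall at each step in set 2, whereas norpA alone had 3463 ± 182, 2137 ± 139 and 1705 ± 114 CPM (SD, n = 3). The other markers were not taken singly. The share of photoreceptor material in the fall of CG6983 was not tested.

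CG13116 was most like PGRP-SA, a secreted receptor for bacterial peptidoglycan in the Toll pathway (r = 0.981 in set 1, 0.963 within groups, 0.938 in set 2), and Spn55B, a gene of the serpin family of protease inhibitors (0.964, 0.927 and 0.987). The level of PGRP-SA in set 2 was 4.46 ± 0.16 CPM at 3d, 10.1 ± 1.1 CPM at 20d and 23.2 ± 1.5 CPM at 50d (SD, n = 3). The CPM of CG13116 divided by that of PGRP-SA did not hold across these ages. It was 1.37 to 1.58 at 3d, 1.82 to 2.52 at 20d and 1.18 to 1.27 at 50d, without overlap. In set 1 it was 1.56 to 1.73 in controls and 1.37 to 1.54 in mutants at 3d. At 20d there it was 1.36 to 1.65 in controls and 1.39 to 2.04 in mutants. The low 20d mutant replicate 1 of CG13116 was also the lowest of PGRP-SA in its group, at 125 counts against up to 272.

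CG14329 was most like Ipk1, an inositol phosphate kinase (r = 0.981 in set 1, 0.927 in set 2), and CG8311 (0.977 and 0.754). Within groups r was only 0.474 and 0.341, so the likeness lay in the group means. Ipk1 was at 35.2 ± 6.1 CPM in controls and 6.62 ± 0.88 CPM in mutants at 3d, and at 49.0 ± 11 and 14.6 ± 3.3 CPM at 20d (SD, n = 3). It was lower in every mutant library than in any control library of that age, and by a smaller factor than CG14329.

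CG31808 was most like Vha68-1, a catalytic subunit of the vacuolar proton pump (r = 0.992 in set 1, 0.606 within groups, 0.985 in set 2), and mAcon1, the mitochondrial aconitase of the citric acid cycle (0.991, 0.403 and 0.985). The likeness lay mostly in the group means. mAcon1 was at 656 ± 7.8 CPM in controls and 804 ± 12 CPM in mutants at 3d, and at 532 ± 13 and 535 ± 7.4 CPM at 20d (SD, n = 3), the order of CG31808 with smaller steps. The adjacent gene Cyt-c-p, which encodes cytochrome c of the respiratory chain, shared some of these differences. It was higher in 3d mutants (log2 fold change 0.49, SE 0.057, adjusted p = 2.36e-05 from edgeR) and lower at 20d than at 3d in controls (-0.64, SE 0.057, adjusted p = 1.21e-05) and in mutants (-0.89, SE 0.057, adjusted p = 7.57e-08). Unlike CG31808, which was level between the genotypes at 20d, Cyt-c-p was still called higher in 20d mutants (log2 fold change 0.24, SE 0.057, adjusted p = 0.00494), and its interaction was -0.25 (SE 0.080, adjusted p = 0.0434). Cyt-c-d, whose exons overlap those of CG31808 on the opposite strand, held 6 to 65 counts per library against 4502 to 16823 for CG31808. The strand setting of the counting is not stated, so its few counts and those of CG31808 cannot be fully told apart.

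CG5953 was most like meigo (r = 0.968 in set 1, 0.790 within groups, 0.852 in set 2) and ALiX, which acts with the membrane-sorting ESCRT complexes (0.966, 0.793 and 0.940). CG8620 was most like Mcr, a protein related to complement (0.952, 0.560 and 0.920), and CCT7, a chaperonin subunit (0.949, 0.616 and 0.840). For CG32726 and CG8665 the likeness did not carry over to set 2. The set 1 and set 2 values for CG32726 were 0.913 and 0.506 with P32 and 0.910 and 0.428 with betaTub56D, a beta-tubulin, and those for CG8665 were 0.883 and -0.30 with Gga, a clathrin adaptor, and 0.863 and -0.01 with CG5151.

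**Figure D5:**
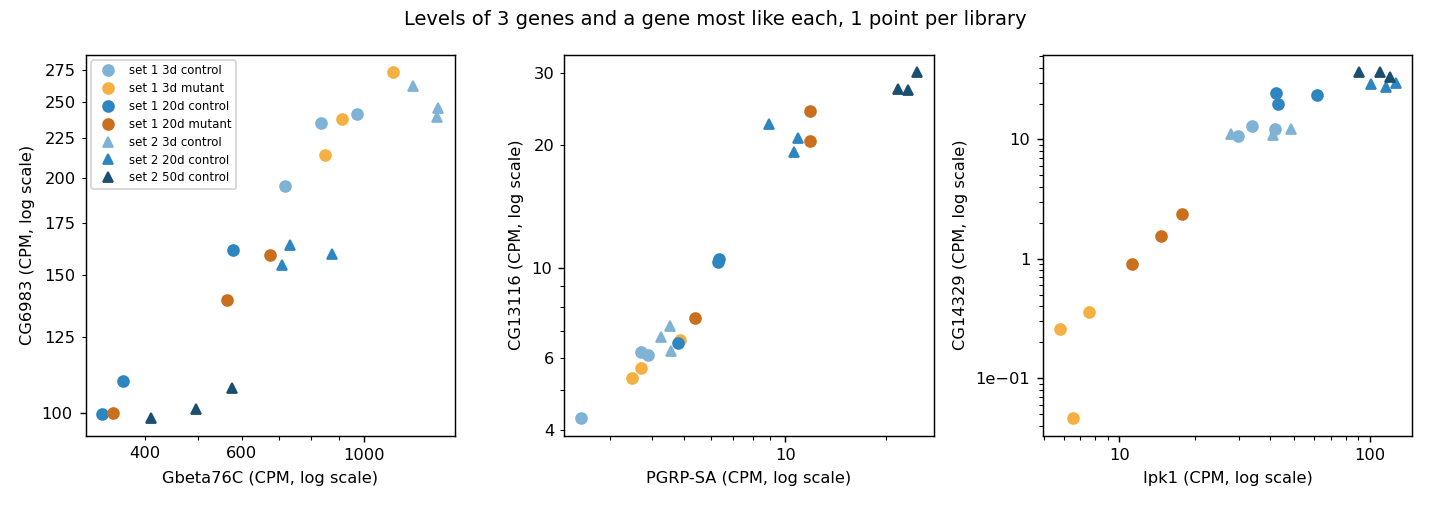
CPM of CG6983, CG13116 and CG14329 against the most similar gene of each, Gbeta76C, PGRP-SA and Ipk1, on log axes, with 1 point per library (circles, set 1; triangles, set 2). The group means of the ratio of CG6983 to Gbeta76C were lower in set 2 (0.190 to 0.210) than in set 1 (0.252 to 0.293). The mutant libraries of CG14329 lie apart at low levels of both genes.

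The 8 genes did not rise and fall as one unit in set 1. Over its 12 libraries r of log2 CPM was 0.902 between CG13116 and CG5953 and 0.887 between CG8620 and CG5953. Between CG13116 and CG14329 it was 0.060, with CG14329 at means of 0.221 and 1.62 CPM in the mutants. That pair had 0.987 over the 9 libraries of set 2, but both genes were chosen for their age trends there, so a high value was built into the choice. CG31808 and CG6983, both falling with age, had 0.770 across set 1 and -0.93 within its groups, so that libraries high in one were low in the other within a group.

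A list of 15 other genes, drawn up for one-carbon metabolism, was set beside CG8665, and 13 of the list were tested. Mat1, among the 13, is a subunit of the kinase that activates cyclin-dependent kinases and does not belong to the pathway. Counts and medians of the list include Mat1 unless stated. Of the comparisons given for the list, the main fits called Mat1 only between 3d and 20d in set 2. In set 2, 8 of the 13 rose between 3d and 20d (19.3% of all genes were called higher) and none fell (19.9% lower). Mat1 was 1 of these 8, which leaves 7 of 12 genes of the pathway. Between 20d and 50d 4 rose (5.51%) and none fell (4.21%), and 2 rose without 20d control replicate 2, 50d control replicate 1 or 50d control replicate 2. With 1 library left out, 1 gene was called lower at the first step without 20d control replicate 1 and 1 at the second without 20d control replicate 3. The median log2 fold change of the list was 0.84 for the first step and 0.21 for the second, and that of all genes was 0.01 and 0.00. CG8665, by contrast, overlapped between 3d and 20d and stood 2.91 (log2) higher at 50d than at 20d. Gnmt, the glycine methyltransferase that consumes S-adenosylmethionine, had 39.3 ± 9.1 CPM at 3d, 127 ± 32 CPM at 20d and 431 ± 84 CPM at 50d (SD, n = 3). Gnmt rose at both steps, by 1.70 (log2, SE 0.25, adjusted p = 0.00184 from edgeR) and 1.76 (SE 0.25, adjusted p = 0.00775).

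In set 1, 2 of the 13 genes were higher at 20d than at 3d in controls (11.3% of all genes), Ahcy, the hydrolase of S-adenosylhomocysteine, and Sardh, the sarcosine dehydrogenase, and 1 was lower (13.3%). Only 1 was higher without 3d control replicate 1, 20d control replicate 2 or 20d control replicate 3, and without the 2 libraries with gut markers 1 was higher and 2 were lower. In mutants 7 were higher (22.8% of all genes) and 1 was lower (23.2%), with 4 higher without 3d mutant replicate 1 or 2. Between the genotypes at 3d, Sam-S, the S-adenosylmethionine synthetase, was the 1 gene higher in mutants (16.5% of all genes), and it was lost in each of the 6 fits with 1 library left out. Sardh was the 1 gene lower (15.0%), a count that was 2 without 3d control replicate 3, 3 with DESeq2 and 4 with only the groups compared. At 20d 4 were higher in mutants (Ahcy, CG7560, Gnmt and ppl; 16.6% of all genes) and none was lower (15.4%). That count was 2 with only the groups compared and without 20d mutant replicate 1, and 1 without 20d control replicate 1 or 3 or 20d mutant replicate 3. Gnmt was at 20d at 81.2 ± 25 CPM in the controls and 195 ± 50 CPM in the mutants (SD, n = 3; log2 fold change 1.27, SE 0.36, adjusted p = 0.0279 from edgeR). CG8665 was not called at 20d in that comparison.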

How the data were processed

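RNA of 21 pools of 20 male brains was sequenced. The authors aligned the reads with HISAT2, counted them per gene with HTSeq and deposited 1 table of whole-number counts, without normalization or filtering. The strand setting of counting is not given in the sources used here, and the stated releases of genome and annotation differ. TMM-scaled CPM and a robust quasi-likelihood test were computed in edgeR 4.0.16 under R 4.3.3, with 1 fit per set, for genes kept by filterByExpr (minimum count 10). Adjusted p-values (Benjamini-Hochberg) cover all genes tested, and an adjusted p under 0.05 was called. Values on the log2 CPM scale used a prior count of 2. Positions are from Ensembl annotation on BDGP6.54; 17547 of 17612 genes had an entry and 65 did not. The fits were tested on simulated data.

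The genes, gene lists and tests were chosen with earlier results of these data known, and set 2 chose the 8 genes, so they have no test there. Named besides them were, for each gene, the 2 most similar genes (mean log2 CPM of at least 2), its neighbours and exon-overlapping genes, marker lists and the one-carbon list. Alternatives were DESeq2 1.42.0, RLE size factors, no filter, only the groups compared, a floor of 10 counts in each library, the replicate number as a block, a prior count of 0.5, each library left out and, chosen after seeing the data, the 2 set 1 libraries with gut markers left out. Protein and promoter sequences were not used here. Counts of all 21 replicate pairs were further apart than sampling noise allows (chi-square per degree of freedom 5.70 to 55.1). Intervals were computed from counts summed over the libraries of a group, so they cover counting error only and leave out the spread between libraries. The reads carry no molecular identifiers.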

Additional observations from a re-analysis of the deposited data

Results flagged for a closer look

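CG14329, CG32726 and CG31808 had an effect of age that differed between the genotypes by the interaction test of set 1 (edgeR with Benjamini-Hochberg adjustment). It was 1.97 on the log2 scale for CG14329 (adjusted p = 0.0321), 3.24 for CG32726 (adjusted p = 0.0467) and -0.58 for CG31808 (adjusted p = 0.002). With 1 library left out at a time, it was called in 5, 2 and 12 of 12 fits, in that order.

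CG32726 moved in opposite directions from 3d to 20d in the controls of the 2 sets, by -4.45 on the log2 scale in set 1 and by 1.80 in set 2, with no overlap between the ages in either set. The difference between the sets was not tested.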

How the results depend on the processing

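Most calls kept their side of the threshold. At 20d, mutant against control, 4 of the 8 genes were called with DESeq2 (CG8620 and CG13116 added, adjusted p = 0.0476 and 0.015) in place of 2. For the interaction, 1 was called in place of 3 with no filter, with at least 10 counts in every library (CG14329 and CG32726 were then not tested) and with the 2 gut-marker libraries left out. With 1 library left out at a time, 1 to 3 genes had a called interaction. Over all genes, 1548 to 2523 were called between 20d and 3d in controls, against 2451, the lowest without 20d control replicate 3, and 1602 without 3d control replicate 1. Signs changed only for uncalled values. The CG6983 interaction was -0.01, 0.00041 with no filter, 0.20 without the gut-marker libraries and -0.15 to 0.23 with 1 library left out. For CG31808 at 20d, mutant against control was -0.037 without the gut-marker libraries and -0.060 to 0.098 with 1 left out. With 1 left out, mutant against control ranged from -0.30 to 0.38 for CG8620 and -0.062 to 0.19 for CG13116 at 3d and from -0.042 to 0.34 for CG6983 at 20d. CG8665 ranged from -0.29 to 0.57 between 20d and 3d in set 1 controls and from -0.41 to 0.71 in set 2, the lowest without 20d control replicate 1. The main fits did not treat libraries of the same replicate number as paired. The correlations of their deviations ranged from -0.16 to 0.33, and no comparison had every pair over 0.1. They came closest between 50d and 20d in set 2 (0.0905 to 0.332), so these few pairs do not settle whether the numbers pair the libraries. With the replicate block, 3, 3, 6, 6 and 2 of the 8 genes were called in the 5 comparisons of set 1. CG8620 at 20d was then called (0.79, adjusted p = 0.0191) and the CG32726 interaction was not (3.20, adjusted p = 0.083). The cause was not tested. Depth limits CG14329 in mutants, CG32726 at 20d in set 1 and at 50d in set 2, and CG8620 at 3d.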
